A study of Mus musculus with 8 samples.

Results

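The genes described here are those of the mitogen-activated protein (MAP) kinase cascade and of the dual-specificity phosphatases. They were chosen by name: every non-control probe whose gene name in the scanner tables begins with Mapk, Map2k, Map3k or Map4k, or is Dusp followed by a digit. This gave 140 of 41174 probes and 74 of 27577 genes, of which 63 were bright enough to be tested. The study used cultured lymph node stromal cells (LNSCs) of BALB/c mice that had been lipofected with 400 pmol of siRNA against Eif4g3, or with a control siRNA, and were harvested after 48 h. Eif4g3 encodes eIF4G3, a scaffold of the complex that brings ribosomes to capped mRNA. RNA was taken from heavy polysomes, which are mRNAs carrying many ribosomes, and from the total lysate, giving 2 fractions with 4 arrays each. Each 2-colour array compared Eif4g3 siRNA cells, labelled with Cy5, with control siRNA cells, labelled with Cy3. Dyes were never exchanged, so within a fraction a dye effect on a probe and a change of its transcript cannot be told apart. Cells were pooled for the gradients and no label gives the number of separate cultures, so p-values measure the spread between these arrays, which may be technical.

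A MAP kinase cascade is a chain of kinases in which a MAP3 kinase activates a MAP2 kinase, which activates a MAP kinase such as ERK, JNK or p38. MAP4 kinases act upstream of the chain, scaffold proteins hold its members together, and MAP kinase-activated protein kinases (MAPKAP kinases) act downstream. Dual-specificity phosphatases of the MAP kinase phosphatase (MKP) group remove the activating phosphates from MAP kinases, and several are themselves induced by MAP kinase signals. In stromal cells these pathways carry growth factor, stress and inflammatory signals.

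Ratios below set Eif4g3 siRNA over control siRNA on the log2 scale, and means carry the SD of 4 arrays. A gene passed the threshold where its adjusted p, from limma with Benjamini-Hochberg adjustment over all 14485 tested genes, was below 0.05. The knocked-down gene, Eif4g3, was lower on all 8 arrays, with means of -2.46 ± 0.50 in heavy polysome RNA and -2.07 ± 0.29 in total RNA. Among cell type markers, 9 of 10 fibroblastic stroma genes were well above background on all 4 control total RNA arrays, against 0 of 6 endothelial genes. Of 8 macrophage markers, 5 were detected on those arrays, while Adgre1, Tyrobp and Itgam were detected in neither channel of any array. Of 6 lymphocyte markers 1 was detected there, as were 2 of 6 epithelial markers. Fibroblastic stroma markers had array medians from -0.39 to -0.16 in heavy polysome RNA and from -0.43 to -0.12 in total RNA, and macrophage markers from -0.64 to -0.04 and from -0.33 to -0.02. Of the 10 stroma genes, Pdgfra, Pdgfrb, Col1a1 and Col1a2 fell and Cxcl12 rose in heavy polysome RNA, and Col1a2 alone fell in total RNA. Of all tested genes, 4.04% fell and 4.87% rose in heavy polysome RNA, and 2.71% fell in total RNA. The part of these markers in the results below was not tested. Heavy polysome arrays 1 and 3 and total RNA array 4 correlated least with the other arrays of their fraction across genes (mean r of 0.289, 0.318 and 0.327), while heavy polysome arrays 2 and 4 had r = 0.883.

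In heavy polysome RNA, the phosphatase genes Dusp2 and Dusp4 and the JNK kinase gene Map2k4 rose after Eif4g3 knockdown. Mapkapk2, the upstream kinase gene Map4k4 and the JNK scaffold gene Mapk8ip3 fell. These 6 of 63 tested members (9.52%) compare with 8.91% of all tested genes past the threshold in that fraction (4.87% higher, 4.04% lower), a share near the background. In total RNA, Dusp2 and Dusp10 rose, and Mapkapk2, Map4k4, the p38 kinase gene Map2k6 and the TAK1-binding protein gene Tab1 fell. These again were 6 of 63 members (9.52%), against 4.38% of all tested genes (1.67% higher, 2.71% lower). The median member ratio was 0.06 in heavy polysome RNA and -0.08 in total RNA, against 0.02 and -0.04 over all tested genes. At an unadjusted p below 0.05, 17 members passed in heavy polysome RNA (25.4% of all genes did) and 18 in total RNA (22.1% of all genes). Fewer cells with a transcript and less of it per cell cannot be told apart in bulk RNA. Leaving out 1 array at a time gave 2 to 8 members past the threshold in heavy polysome RNA, with under 4 without heavy polysome array 2 (3, with 3.76% of all genes past it) or 4 (2, with 2.34%). In total RNA it gave 1 to 8, with under 4 where total RNA array 1 (3, with 1.22% of all genes), 2 (2, with 0.877%), 3 (1, with 0.359%) or heavy polysome array 4 (3, with 1.71%) was omitted. No member missed a value on any array, and 55 of the 63 were well above background in both channels on every array.

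**Figure D1:**
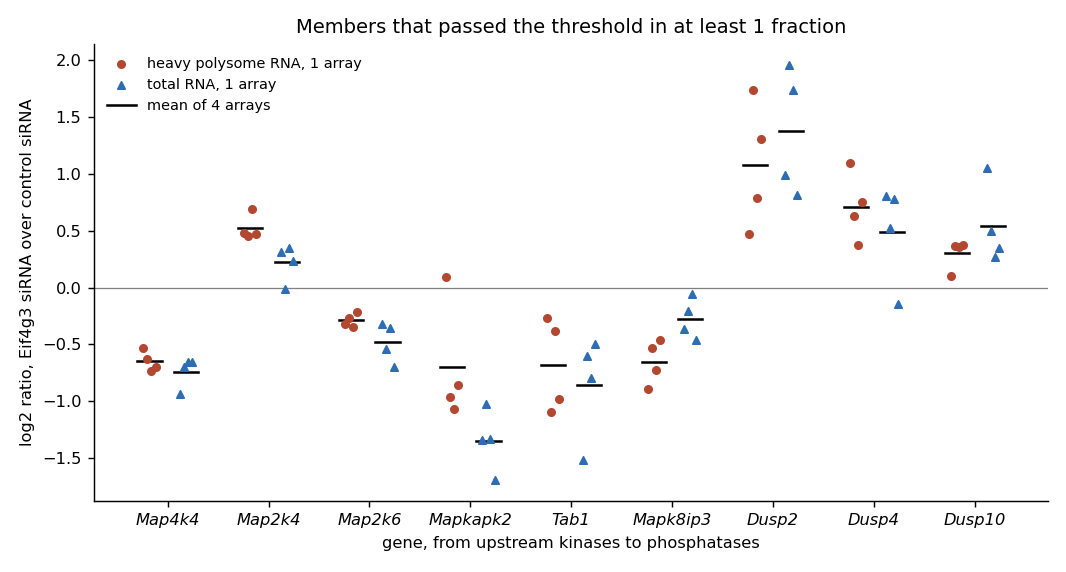
Log2 ratio of Eif4g3 siRNA over control siRNA (y axis) for the 9 members that passed the threshold in at least 1 fraction (x axis, from upstream kinases to phosphatases). Circles are the 4 heavy polysome arrays, triangles the 4 total RNA arrays and bars the means. Map4k4 lies between -0.94 and -0.53 on all 8 arrays and Dusp2 between 0.47 and 1.96, while heavy polysome array 1 puts Mapkapk2 at 0.09.

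Among the 5 tested MAP4 kinases, Map4k4, which encodes an upstream kinase of JNK signalling, was the member with the smallest adjusted p in both fractions. Its ratios (probe A_51_P268053, mm8 chromosome 1, 39968925 to 39968984) were -0.53, -0.63, -0.73 and -0.70 on heavy polysome arrays 1 to 4, against -0.94, -0.70, -0.66 and -0.66 on total RNA arrays 1 to 4. All 8 arrays were on the low side, and total RNA array 1 was lowest. Map4k4 fell 1.57-fold in heavy polysome RNA (-0.65 ± 0.09, n = 4, limma adjusted p = 0.00404) and 1.67-fold in total RNA (-0.74 ± 0.14, n = 4, limma adjusted p = 0.00571). A second, dim probe of Map4k4 gave -0.03 ± 0.06 and -0.04 ± 0.02. The other MAP4 kinase genes did not pass in either fraction. The highest of them was Map4k2, which encodes germinal centre kinase, at 0.36 ± 0.23 in heavy polysome RNA and 0.25 ± 0.24 in total RNA.

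None of the 11 tested MAP3 kinase genes passed in either fraction (limma, with adjusted p from 0.130 in heavy polysome and 0.133 in total RNA upward). Of all tested genes, 8.91% passed in heavy polysome RNA and 4.38% in total RNA, so with 11 genes none passing is near the background. The MAP3 kinase means ran from -0.26 for Map3k11, which encodes the mixed-lineage kinase MLK3, to 0.32 for Map3k13 in heavy polysome RNA. In total RNA they ran from -0.45 for Map3k3, which encodes MEKK3, to 0.16 for Map3k6. Map3k5 (the stress kinase ASK1) had 0.04 ± 0.22 and -0.13 ± 0.14, and Map3k7 (TAK1, which relays cytokine signals) had 0.18 ± 0.37 and -0.10 ± 0.25. Map3k2, Map3k8, Map3k9 and Map3k15 did not pass the filters on dim probes and missing values and were not tested.

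Of the 7 MAP2 kinase genes, Map2k4, which encodes the JNK-activating kinase MKK4, rose in heavy polysome RNA. Its ratios (probe A_51_P471440, mm8 chromosome 11, 65504680 to 65504739) were 0.48, 0.45, 0.70 and 0.47 on heavy polysome arrays 1 to 4, against 0.31, -0.01, 0.35 and 0.24 on total RNA arrays 1 to 4. Every heavy polysome value lay above every total RNA value. Map2k4 was 1.44-fold higher in heavy polysome RNA (0.52 ± 0.11, n = 4, limma adjusted p = 0.00991), a call lost without heavy polysome array 4 (adjusted p = 0.0512). In total RNA it averaged 0.22 ± 0.16 (adjusted p = 0.192).

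Map2k6, which encodes the p38-activating kinase MKK6, fell in total RNA. Its ratios (probe A_51_P256093, mm8 chromosome 11, 110329579 to 110329638) were -0.32, -0.27, -0.34 and -0.21 on heavy polysome arrays 1 to 4, against -0.32, -0.54, -0.36 and -0.70 on total RNA arrays 1 to 4. All 8 were negative and the fractions overlapped. Only 1 of 3 Map2k6 probes passed the filters, and it was well above background in both channels on every array. Map2k6 averaged -0.29 ± 0.06 in heavy polysome RNA, short of the threshold (adjusted p = 0.0789). In total RNA it fell 1.39-fold (-0.48 ± 0.18, n = 4, limma adjusted p = 0.023), and the call ended when any of the 4 arrays of that fraction, or heavy polysome array 4, was left out (adjusted p up to 0.0953). The ERK-activating kinase genes Map2k1 (-0.17 ± 0.29 and -0.58 ± 0.58) and Map2k2 (-0.03 ± 0.26 and -0.19 ± 0.28) did not pass, nor did Map2k3 (p38), Map2k5 (ERK5) or Map2k7 (JNK). Total RNA array 4 gave Map2k1 a ratio of -1.40, against -0.57 to -0.14 on the other total RNA arrays.

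No MAP kinase gene passed in either fraction, with limma adjusted p no lower than 0.116 in heavy polysome and 0.148 in total RNA over the 10 tested. Over all tested genes 8.91% and 4.38% passed, so with 10 genes none passing is near the background. Mapk3, which encodes ERK1, averaged 0.44 ± 0.37 in heavy polysome RNA, against 0.12 ± 0.33 in total RNA. The JNK genes were at 0.24 ± 0.42 and -0.08 ± 0.11 for Mapk8, and 0.12 ± 0.10 and -0.22 ± 0.06 for Mapk9. The main p38 gene Mapk14 was at 0.10 ± 0.23 and -0.07 ± 0.10, and Mapk11, Mapk12 and Mapk13, which encode the other p38 kinases, ran from -0.13 to 0.40 in heavy polysome RNA and from -0.34 to -0.03 in total RNA. Mapk7, which encodes ERK5, had 0.04 ± 0.16 and -0.46 ± 0.77, with total RNA array 4 at -1.61. Mapk6, which encodes the atypical kinase ERK3, was at 0.01 ± 0.39 and -0.23 ± 0.27. Mapk4, Mapk10 and Mapk15 were not tested.

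Probes spotted 10 times on each array show how far such values repeat within an array. For such probes of Mapk3, Mapk8 and Mapk14 the median SD between spots of 1 array lay between 0.08 and 0.10. The SD between arrays for the same probes ran from 0.05 to 0.28 in heavy polysome RNA and from 0.07 to 0.29 in total RNA. The SD between arrays was taken over the mean of the spots on each array. For Mapk3 and Mapk14 it exceeded the median SD of single spots, and for Mapk8 it did not. A mean of several spots varies less than 1 spot, so this does not show that the Mapk8 arrays agreed within the spread of spots. The Mapk3 and Mapk8 ratios given above come from other probes of these genes, and the Mapk8 probe spotted 10 times was too dim to be tested. On single arrays the spread of spots reached 0.51, for Mapk14.

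Mapkapk2 encodes MK2, the kinase through which p38 controls the stability and translation of many inflammatory mRNAs. On its brighter probe (A_52_P15008, mm8 chromosome 1, 132881661 to 132881720) the ratios were 0.09, -0.97, -1.07 and -0.85 on heavy polysome arrays 1 to 4, against -1.34, -1.02, -1.34 and -1.69 on total RNA arrays 1 to 4. All total RNA arrays and 3 of the 4 heavy polysome arrays were low, and heavy polysome array 1 was not. Mapkapk2 fell 1.62-fold in heavy polysome RNA (-0.70 ± 0.54, n = 4, limma adjusted p = 0.0443) and 2.54-fold in total RNA (-1.35 ± 0.27, n = 4, limma adjusted p = 0.00918). The heavy polysome call did not hold without any 1 of 6 arrays (total RNA arrays 1 to 3, heavy polysome arrays 2 to 4), with adjusted p up to 0.161. Without heavy polysome array 1 its mean was -0.96 (adjusted p = 0.00709). The total RNA call ended without total RNA array 3 (adjusted p = 0.0547). By mean ratio, Mapkapk2 was the 7th lowest of all 14485 genes in total RNA and the 217th lowest in heavy polysome RNA.

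Set against its family, Mapkapk2 on its brighter probe was the lowest of the 3 MAPKAP kinase genes on each of the 8 arrays. Its gap to the median of the other members averaged -0.60 ± 0.25 on the heavy polysome arrays and -1.17 ± 0.31 on the total RNA arrays (SD, n = 4 each). Mapkapk3, which encodes the closely related MK3, was at -0.09 ± 0.47 in heavy polysome RNA and -0.26 ± 0.17 in total RNA (adjusted p = 0.763 and 0.362). Mapkapk5, which encodes MK5, was at -0.10 ± 0.52 and -0.09 ± 0.11 (adjusted p = 0.739 and 0.799). By position on the slide, the mean of Mapkapk2 was -0.49 (position 1) and -0.91 (position 3) in heavy polysome RNA, and -1.36 and -1.34 in total RNA. The gaps are descriptions, because Mapkapk2 was singled out with its ratio known.

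A second Mapkapk2 probe (A_51_P118902, 132883550 to 132884008) gave smaller and more scattered values. They were 0.67, -0.47, 0.34 and -0.39 on heavy polysome arrays 1 to 4, against -1.27, -0.20, -0.61 and -0.06 on total RNA arrays 1 to 4. The heavy polysome values lay on both sides of 0 and the total RNA values were all negative. This probe lay above both other MAPKAP kinase genes on heavy polysome arrays 1 (0.36 to 0.57) and 3 (-0.85 to -0.49). On total RNA arrays 2 and 4 it lay between them, and on the remaining arrays it was the lowest. Its mean was 0.03 ± 0.56 in heavy polysome RNA and -0.54 ± 0.54 in total RNA, so the probes differed by 0.73 and 0.81. With both probes averaged, Mapkapk2 had -0.33 in heavy polysome RNA (limma adjusted p = 0.259) and -0.94 in total RNA (limma adjusted p = 0.0197).

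**Figure D2:**
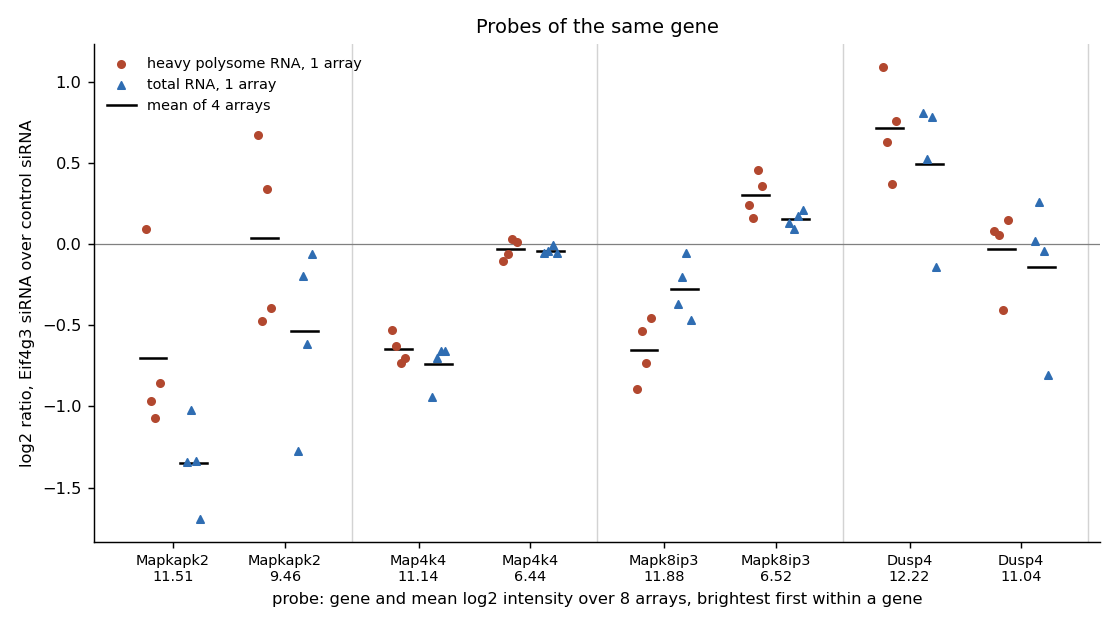
Log2 ratio of Eif4g3 siRNA over control siRNA (y axis) for each tested probe of Mapkapk2, Map4k4, Mapk8ip3 and Dusp4 (x axis, with the probe's mean log2 intensity over the 8 arrays). Circles are heavy polysome arrays, triangles total RNA arrays and bars means of 4. The dimmer probe of Map4k4, at 6.44, stays near 0 (-0.03 and -0.04), and the probes of Mapk8ip3 lie on opposite sides of 0 in heavy polysome RNA (-0.65 and 0.30).

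Several other members had probes that disagreed. Of 31 genes with more than 1 tested probe, the median range between probe means was 0.18 in heavy polysome RNA and 0.21 in total RNA, and it exceeded 0.5 in 7 and 6 genes. The range was 0.64 in heavy polysome RNA and 0.39 in total RNA for the 3 probes of Mapk9, and 0.59 and 0.34 for the 4 probes of Dusp11, which encodes an RNA phosphatase. Where the probes lie relative to exons and untranslated regions was not analysed here.

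Of the 9 tested scaffold and adaptor genes, Mapk8ip3 and Tab1 passed in 1 fraction each. Over all tested genes 8.91% passed in heavy polysome RNA and 4.38% in total RNA. Mapk8ip3 encodes JIP3, which links JNK signalling to axonal transport. Its ratios (probe A_51_P264388, mm8 chromosome 17, 24625152 to 24625211) were -0.89, -0.53, -0.73 and -0.46 on heavy polysome arrays 1 to 4, against -0.37, -0.21, -0.06 and -0.46 on total RNA arrays 1 to 4. All 8 were negative, and the fractions overlapped at array 4 of each. Mapk8ip3 fell 1.57-fold in heavy polysome RNA (-0.65 ± 0.20, n = 4, limma adjusted p = 0.00715), and averaged -0.27 ± 0.18 in total RNA (adjusted p = 0.16). Its dimmer probe gave 0.30 ± 0.13 and 0.15 ± 0.05, on the other side of 0.

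Tab1 encodes an activator of TAK1. On its only probe (A_51_P121466, mm8 chromosome 15, 79988864 to 79988923) it had -0.27, -1.09, -0.38 and -0.98 on heavy polysome arrays 1 to 4, against -1.51, -0.60, -0.80 and -0.50 on total RNA arrays 1 to 4. All 8 ratios were negative and the fractions overlapped. Tab1 fell 1.81-fold in total RNA (-0.85 ± 0.46, n = 4, limma adjusted p = 0.038), and averaged -0.68 ± 0.42 in heavy polysome RNA (adjusted p = 0.0529). Without heavy polysome array 1, or total RNA array 1 or 4, Tab1 passed in heavy polysome RNA too (adjusted p from 0.0297). The call in total RNA ended when any of its 4 arrays, or heavy polysome array 2 or 4, was left out (adjusted p up to 0.132). The partner genes Tab2 (-0.17 ± 0.42 and -0.30 ± 0.16) and Tab3 (0.35 ± 0.41 and 0.41 ± 0.16) did not pass, nor did the ERK scaffold gene Lamtor3 or Mapkap1, which encodes the mTORC2 subunit SIN1.

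Among the phosphatases, Dusp2, Dusp4 and Dusp10 of the MKP group rose in at least 1 fraction, and none of the 18 tested Dusp genes fell. Of all tested genes, 4.87% rose and 4.04% fell in heavy polysome RNA, and 1.67% rose and 2.71% fell in total RNA. With 18 genes, none falling is near these shares. Dusp2 encodes PAC-1, a nuclear phosphatase of ERK and p38 best known from immune cells. On its only probe (A_52_P399934, mm8 chromosome 2, 127029635 to 127029694) the ratios were 0.47, 1.74, 0.79 and 1.31 on heavy polysome arrays 1 to 4, against 0.99, 1.96, 1.74 and 0.81 on total RNA arrays 1 to 4. All 8 were above 0, and the fractions overlapped. Dusp2 rose 2.11-fold in heavy polysome RNA (1.08 ± 0.56, n = 4, limma adjusted p = 0.0225) and 2.59-fold in total RNA (1.38 ± 0.56, n = 4, limma adjusted p = 0.017). The heavy polysome call was lost without heavy polysome array 2 or 4, and the total RNA call without total RNA array 2 or 3 (adjusted p up to 0.0873).

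Against its family, Dusp2 was the highest of 18 tested Dusp genes on 2 of 4 heavy polysome arrays and on 3 of 4 total RNA arrays. It lay 0.35 to 1.55 above the median of the other 17 on the heavy polysome arrays and 0.89 to 1.78 above it on the total RNA arrays. On heavy polysome array 1 it was only 7th of 18. Over all 14485 genes its mean ratio was the 4th highest in total RNA and the 46th highest in heavy polysome RNA. By position on the slide, the heavy polysome mean of Dusp2 was 0.63 on arrays 1 and 3 (position 1) and 1.52 on arrays 2 and 4 (position 3). In total RNA these means were 1.39 and 1.36. The ranks are descriptions, since Dusp2 too was singled out with its ratio known.

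Dusp4, which encodes the nuclear phosphatase MKP-2, had 1.09, 0.63, 0.37 and 0.76 on heavy polysome arrays 1 to 4, against 0.80, 0.52, 0.78 and -0.14 on total RNA arrays 1 to 4. Every heavy polysome array was above 0, and total RNA array 4 was not. Dusp4 (probe A_51_P347333, mm8 chromosome 8, 36290269 to 36290328) rose 1.64-fold in heavy polysome RNA (0.71 ± 0.30, n = 4, limma adjusted p = 0.0287) and averaged 0.49 ± 0.44 in total RNA (adjusted p = 0.121). Its second probe, also bright, gave -0.03 ± 0.25 and -0.14 ± 0.46. The heavy polysome call was lost without any 1 of heavy polysome arrays 1, 2 and 4 or without total RNA array 2 (adjusted p up to 0.111). Without total RNA array 4, Dusp4 passed in total RNA (0.70, adjusted p = 0.048).

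Dusp10, which encodes MKP-5, a phosphatase of JNK and p38, had 0.10, 0.37, 0.36 and 0.37 on heavy polysome arrays 1 to 4, against 1.05, 0.49, 0.27 and 0.35 on total RNA arrays 1 to 4. All 8 were above 0, with total RNA array 1 the highest. Dusp10 (probe A_51_P104418, mm8 chromosome 1, 185775985 to 185776044) averaged 0.30 ± 0.13 in heavy polysome RNA (adjusted p = 0.177) and rose 1.45-fold in total RNA (0.54 ± 0.35, n = 4, limma adjusted p = 0.0472). The call ended when any array of that fraction, or heavy polysome array 2 or 4, was left out (adjusted p up to 0.128). With arrays centred on the median of all spots its total RNA ratio was -0.39, which lay 0.39 above the median of tested genes under that centring.

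The other MKP genes did not pass in either fraction. The stress-inducible Dusp1 (MKP-1) was at 0.25 ± 0.50 in heavy polysome RNA and 0.00 ± 0.16 in total RNA. The ERK phosphatase gene Dusp6 (MKP-3) was at -0.17 ± 0.30 and -0.30 ± 0.51, and its relative Dusp9 at -0.21 ± 0.69 and -0.55 ± 0.45. Dusp16 (MKP-7) was at 0.42 ± 0.31 and 0.18 ± 0.24 (adjusted p = 0.0815 and 0.463), and Dusp7 and Dusp8, which act on ERK and on JNK and p38, had 0.02 and 0.04 in heavy polysome RNA and -0.26 and -0.08 in total RNA. Of the 9 other tested Dusp genes, Dusp12 came nearest to the threshold, at 0.54 ± 0.43 (adjusted p = 0.0545) and 0.60 ± 0.20 (adjusted p = 0.0537), followed by Dusp14 in heavy polysome RNA (0.50 ± 0.14, adjusted p = 0.0614). Dusp12 passed in heavy polysome RNA without heavy polysome array 3 (adjusted p = 0.0134), and in total RNA without heavy polysome array 1 or 3. Dusp14 passed in heavy polysome RNA without total RNA array 4 (adjusted p = 0.0111). Dusp3, which encodes the small phosphatase VHR, had -1.69 on heavy polysome array 1, against 0.04 to 0.62 on the other heavy polysome arrays. The remaining means ran from -0.21 for Dusp11 to 0.30 for Dusp18 in heavy polysome RNA, and from -0.11 for Dusp15 to 0.23 for Dusp19 in total RNA. Dusp15 was not well above background in Cy5 on any total RNA array. Dusp13, Dusp26 and Dusp27 were not tested.

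**Figure D3:**
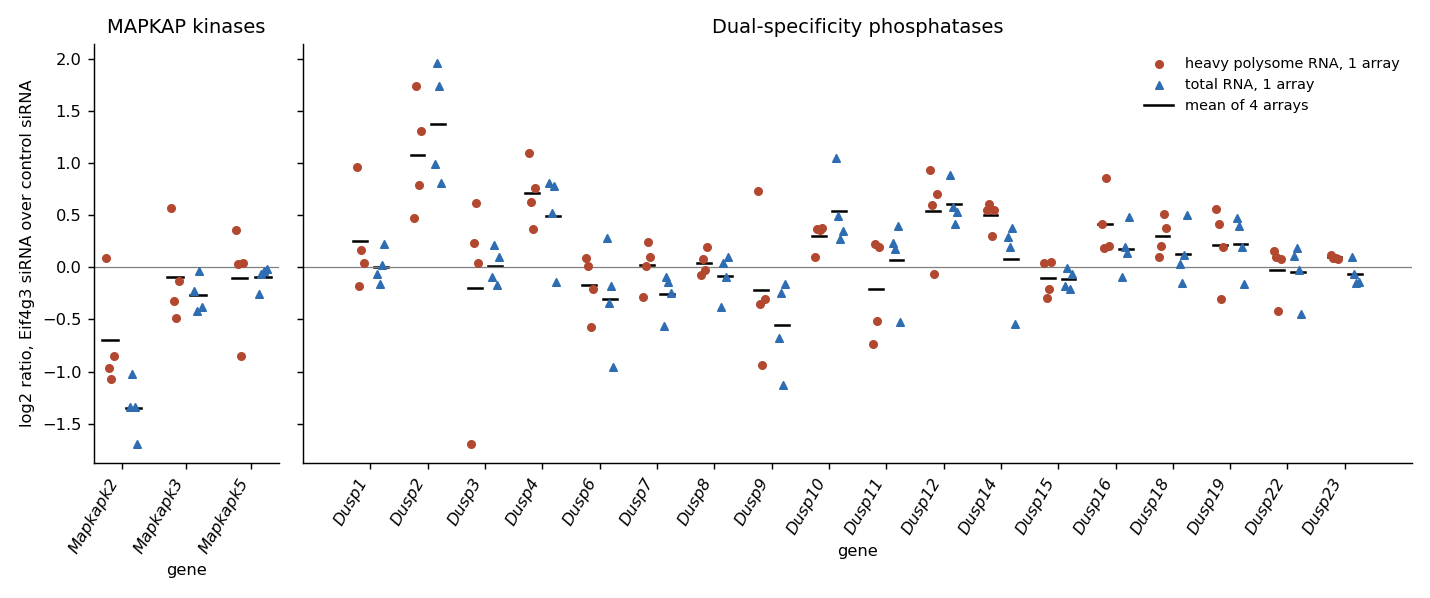
Log2 ratio of Eif4g3 siRNA over control siRNA (y axis) for the 3 MAPKAP kinase genes (left) and the 18 tested Dusp genes (right), with circles for the 4 heavy polysome arrays, triangles for the 4 total RNA arrays and bars for means. By the brightest probe of each gene, Mapkapk2 has the lowest mean of its family (-0.70 and -1.35) and Dusp2 the highest of its own (1.08 and 1.38). The second Mapkapk2 probe is not drawn here.

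The sequences before the transcription starts of these outlying genes are shown because Mapkapk2 was the lowest and Dusp2 the highest member in total RNA, the fraction that measures transcript level. RefSeq promoters of GRCm38.p6 were matched by symbol for 57 of the 74 members. Each sequence holds the 250 bases before the start, 5′ to 3′ on the gene's strand, and capitals mark matches on either strand to the cAMP response element TGACGTCA, the AP-1 site TGANTCA, the GC box GGGCGG, the CCAAT box, the E-box CACGTG or TATAAA.
Mapkapk2 (minus strand, chr1:131097844-131098093): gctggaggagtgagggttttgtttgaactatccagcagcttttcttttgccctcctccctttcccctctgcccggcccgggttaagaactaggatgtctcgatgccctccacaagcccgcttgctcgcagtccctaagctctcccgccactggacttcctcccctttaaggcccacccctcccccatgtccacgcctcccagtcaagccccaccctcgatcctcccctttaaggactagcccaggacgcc
Dusp2 (plus strand, chr2:127335909-127336158): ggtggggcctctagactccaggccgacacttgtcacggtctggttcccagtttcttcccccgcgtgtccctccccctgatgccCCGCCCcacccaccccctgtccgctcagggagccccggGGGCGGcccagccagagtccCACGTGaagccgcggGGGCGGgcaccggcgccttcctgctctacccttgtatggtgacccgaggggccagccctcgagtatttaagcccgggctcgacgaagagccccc
In these windows Dusp2 held 3 GC boxes, 1 of them on the opposite strand, and 1 E-box, and Mapkapk2 held no match. Of all 32851 promoter windows of the same length, 32.7% held a GC box and 6.02% an E-box, against 56.8% and 8.11% of the 74 windows of members. The G and C content was 60.4% for Mapkapk2 and 70.4% for Dusp2, with a median of 61.6% over the members' windows and 52.4% over all windows. A match is a description of letters and not a measured site.

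The difference between fractions asks whether a ratio was higher in heavy polysome RNA than in total RNA. No member passed the threshold, nor did any of the 14485 genes (0%, limma), and 4 members had an unadjusted p below 0.05 (5.22% of all genes did). The 4 were Mapkapk2 at 0.65 (95% interval 0.07 to 1.23), Mapk9 at 0.34 (0.08 to 0.59), Map2k4 at 0.30 (0.01 to 0.59) and Mapk8ip3 at -0.38 (-0.71 to -0.05), each with adjusted p = 0.847. For Dusp2 the difference was -0.30 (-1.04 to 0.44) and for Map4k4 0.09 (-0.18 to 0.36). Leaving out 1 array at a time gave Mapkapk2 differences of 0.38 (without heavy polysome array 1) to 0.77, and leaving out heavy polysome arrays 1 and 3 and total RNA array 4 together gave 0.32. The differences ran from 0.29 to 0.37 for Mapk9, from 0.22 to 0.34 for Map2k4 and from -0.44 to -0.30 for Mapk8ip3. Dusp2 ran from -0.52 (without heavy polysome array 2) to -0.10 (without heavy polysome array 1 or total RNA array 2), and was at -0.04 without the 3 arrays. Map4k4 ran from 0.02 (without total RNA array 1) to 0.12.

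Most members had a higher mean ratio in heavy polysome than in total RNA. Their differences were above 0 for 52 of 63 members (82.5%), against 62.3% of all tested genes, and their median was 0.17 against 0.06. All 7 MAP2 kinase genes (0.16 to 0.46, median 0.31) and all 10 MAP kinase genes (0.11 to 0.49, median 0.33) were above 0. Dual-specificity phosphatases outside the MKP group split 5 to 4, with a median of 0.01. Leaving out 1 array at a time gave 47 to 53 of 63 members above 0, and all 7 and all 10 stayed above 0 each time. Without heavy polysome arrays 1 and 3 and total RNA array 4 the count was 49 (77.8%), against 57.7% of all genes, and the members' median was 0.10. Of the members, 76.2% lay above the median of all tested genes. With 1 array left out this share ran from 60.3% (heavy polysome array 1) to 79.4% (total RNA array 2). It was 63.5% without the 3 arrays, and 63.5% with the scanner software's processed signals. With heavy polysome array 1 left out, the members' median was 0.11, against 0.06 over all genes. These counts and shares carry no test, and genes on 1 array are not independent.

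**Figure D4:**
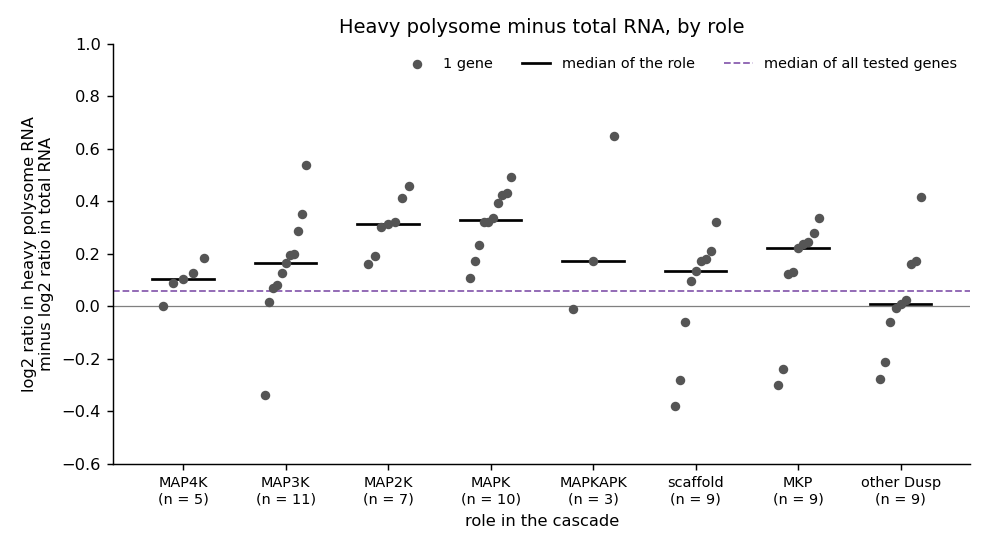
Log2 ratio in heavy polysome RNA minus log2 ratio in total RNA (y axis) for the 63 tested members by role in the cascade (x axis, MKP standing for MAP kinase phosphatase). Points are genes, bars the median of a role and the dashed line the median of all tested genes, 0.06. All MAP2K and MAPK points lie above 0, and Mapkapk2 is the highest point at 0.65.

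Channel levels show how members were distributed between heavy polysome and total RNA within each kind of cell. These are log2 intensities of Cy5 or Cy3 after normalisation between arrays, and equal RNA masses were labelled, so a level is a share of what was labelled. Each slide held 1 fraction only, so slide and fraction cannot be told apart here. In Eif4g3 siRNA cells no member passed (0.152% of all genes did, by limma), and 11 members had an unadjusted p below 0.05 (12.5% of all genes did). In control siRNA cells 2 of 63 members passed (3.17%), against 2.17% of all genes (0.0138% higher, 2.15% lower), and both were lower in heavy polysome RNA.

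Map3k10, which encodes the mixed-lineage kinase MLK2, had in control siRNA cells 7.44, 8.11, 7.48 and 8.31 on heavy polysome arrays 1 to 4, against 9.46, 9.52, 10.52 and 10.42 on total RNA arrays 1 to 4. The fractions did not overlap. The difference of its means was -2.14 (4.42-fold lower in heavy polysome RNA, 95% interval -2.84 to -1.44, limma adjusted p = 0.0105). In Eif4g3 siRNA cells the difference was -2.07 (-2.91 to -1.23, adjusted p = 0.081), and a second Map3k10 probe gave -1.09 there and -1.18 in control siRNA cells.

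Map3k13, which encodes the leucine zipper kinase LZK, had in control siRNA cells 7.23, 6.77, 6.73 and 6.99 on heavy polysome arrays 1 to 4, against 8.42, 8.05, 7.92 and 8.09 on total RNA arrays 1 to 4. These did not overlap either. Its difference was -1.19 (2.29-fold lower, 95% interval -1.59 to -0.80, limma adjusted p = 0.0105), and in Eif4g3 siRNA cells -0.84 (-1.45 to -0.23, adjusted p = 0.262). Only 1 of 3 Map3k13 probes passed the filters, so no second probe was tested. The probe used was well above background in both channels on every array. Without total RNA array 1 Map3k10 passed in Eif4g3 siRNA cells (adjusted p = 0.0239), as did Map3k13 without total RNA array 4 (adjusted p = 0.0493). The control call of Map3k13 ended without heavy polysome array 2 (adjusted p = 0.0547), and no member passed in control siRNA cells without heavy polysome arrays 1 and 3 and total RNA array 4. For Mapkapk2 heavy polysome minus total RNA was 0.69 (0.11 to 1.26, adjusted p = 0.323) in Eif4g3 siRNA cells and 0.04 (-0.70 to 0.78) in control siRNA cells. For Dusp2 it was -1.04 (-1.86 to -0.21) and -0.74 (-1.15 to -0.33), with adjusted p = 0.301 and 0.0835.

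**Figure D5:**
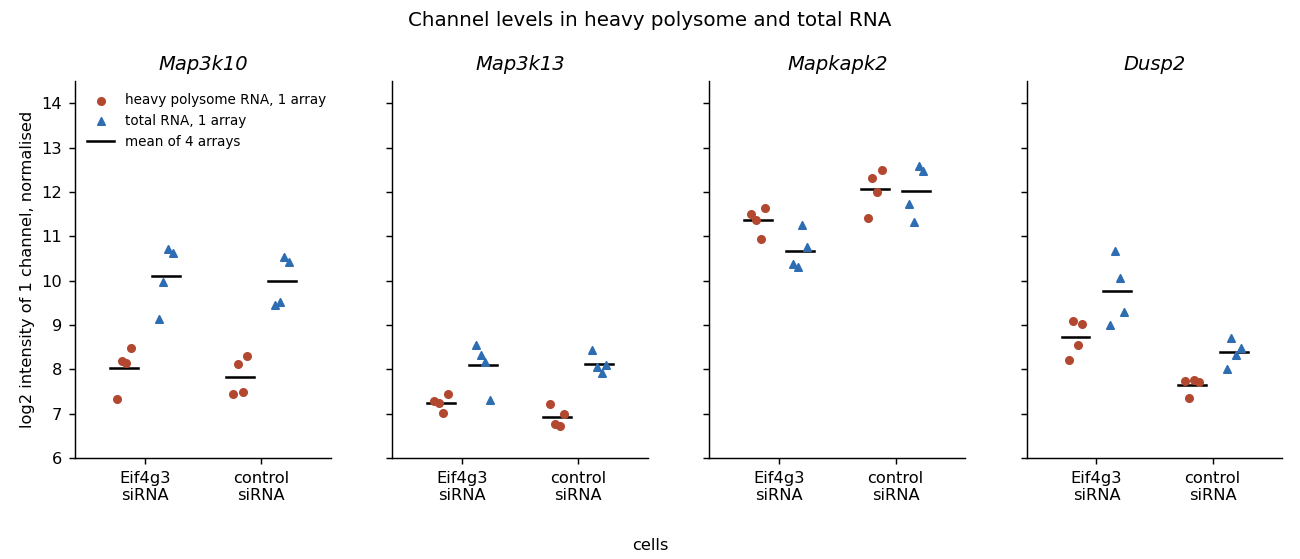
Normalised log2 intensity of 1 channel (y axis) in Eif4g3 siRNA cells (left in each panel) and control siRNA cells (right) for Map3k10, Map3k13, Mapkapk2 and Dusp2. Circles are the 4 heavy polysome arrays, triangles the 4 total RNA arrays and bars their means. Map3k10 in control siRNA cells shows 7.44 to 8.31 in heavy polysome RNA against 9.46 to 10.52 in total RNA.

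Other genes of the pathway were read from lists of activators, inhibitors, downstream kinases and targets. Of 19 tested RAS, RAF and adaptor genes, 4 passed in heavy polysome RNA (8.91% of all tested genes did) and 0 in total RNA (4.38% of all). Hras, a RAS GTPase gene, rose (0.83 ± 0.35, limma adjusted p = 0.0127), with 1.24, 0.48, 1.00 and 0.60 on heavy polysome arrays 1 to 4. Araf, a RAF kinase gene (-0.55 ± 0.22, adjusted p = 0.0193), and the RAS inhibitor gene Rasa1 (-0.40 ± 0.17, adjusted p = 0.0344) fell. The list's median was 0.06 in heavy polysome RNA and -0.01 in total RNA. Leaving out 1 array kept the call of Hras each time. It ended that of Araf without heavy polysome array 2 or 4, and that of Rasa1 without any 1 of 5 arrays (adjusted p up to 0.127).

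Of 24 tested immediate early and AP-1 genes, which MAP kinases switch on or whose proteins they phosphorylate, 3 rose in heavy polysome RNA, as 4.87% of all tested genes did. Egr1, an immediate early transcription factor gene, had 0.78, 1.19, 1.33 and 1.12 on heavy polysome arrays 1 to 4, against -0.17, 1.15, 1.01 and 1.53 on total RNA arrays 1 to 4. All heavy polysome arrays were high, and total RNA array 1 was not. Egr1 rose in heavy polysome RNA (1.11, limma adjusted p = 0.0186), with 0.88 in the total lysate (adjusted p = 0.0587). Atf2, a transcription factor gene and target of p38 and JNK, rose in heavy polysome RNA (0.77, adjusted p = 0.00577), against 0.06 in total RNA (adjusted p = 0.801). Atf3 also rose (0.57, adjusted p = 0.0331). The list's median was 0.20 in heavy polysome and -0.04 in total RNA. Ccnd1, the cyclin D1 gene, fell in total RNA (-0.55, adjusted p = 0.0494). The call of Atf2 held without any 1 array, while that of Egr1 was lost without heavy polysome array 2, 3 or 4 (adjusted p up to 0.0772). Atf3 lost its call without any 1 of 5 arrays and Ccnd1 without any 1 of 6.

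Of 16 tested negative regulators outside the Dusp family, Ppp5c, a serine/threonine phosphatase gene, fell in total RNA (-0.83, limma adjusted p = 0.0485), where 2.71% of all tested genes fell, and none passed in heavy polysome RNA. None of the 6 tested downstream kinase genes (RSK, MSK and MNK) passed in either fraction. Over all tested genes 8.91% passed in heavy polysome RNA and 4.38% in total RNA. Of 13 tested genes around p38 and MK2, Limk1, the LIM kinase gene, fell in total RNA (-0.83, limma adjusted p = 0.0326), and none passed in heavy polysome RNA. The calls of Ppp5c and Limk1 were each lost without any 1 of 6 arrays, the 4 total RNA arrays among them (adjusted p up to 0.152 and 0.101). The list around p38 had a median of -0.17 in heavy polysome RNA and -0.26 in total RNA, with 4 and 2 of the 13 genes above 0. Il6, an inflammatory cytokine gene whose mRNA MK2 stabilises, had -2.53, -0.53, -1.24 and -0.24 on heavy polysome arrays 1 to 4, against 0.41, -0.89, -0.71 and -0.65 on total RNA arrays 1 to 4. Heavy polysome array 1 was the lowest, and total RNA array 1 alone lay above 0. Its adjusted p by limma was 0.0676 in the heavy polysome fraction and 0.465 in total lysate RNA. Il6 was picked after its values were seen, and a link to Mapkapk2 was not tested.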

How the data were processed

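Per the file headers, the authors' scanner tables hold mean spot and background signals of both channels as intensity, made with Agilent Feature Extraction 10.7.3.1, or 10.5.1.1 for total RNA array 2. The deposited value table gives log2 ratios, Cy5 to Cy3 (array medians -0.21 to 0.31), used as an alternative. Mean signals were corrected by normexp (offset 50) and loess-normalised within arrays (span 0.3), with control and outlier spots left out, in R 4.3.3 with limma 3.58.1. The tested probe with the highest mean signal stood for its gene. Tested genes had a probe that either channel marked as well above background on 3 or more arrays of a fraction, and 3 or more values in each. limma fitted 1 coefficient per fraction over the 8 arrays, two-sided. Channel levels were set between arrays by Aquantile normalisation. Of the probes, 23374 were named by accession through RefSeq and 8148 kept the file's name. The fit was tested on simulated data with independent noise. Of 100 genes changed 2-fold it found 81 in heavy polysome RNA and 82 in total RNA, and 37 and 39 of 100 changed 1.5-fold. For the difference between fractions it found 42 or 56 of 100 changed 2-fold and 11 of 100 changed 1.5-fold. Changes of this size can thus miss the threshold for the difference. The number of arrays limits the precision. Probe coordinates are mm8.

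Genes named are Mapkapk2, Dusp2 and their families, the MAP kinases and MAP2 kinases, every member past the threshold, up to 5 members per direction between the fractions of control siRNA cells, and up to 6 genes past the threshold per pathway list and fraction. MAP4 kinase, MAP3 kinase and scaffold genes that did not pass, and Il6, were named after their values were seen. Members and lists were chosen with earlier results of these data known. Alternatives changed background correction, normalisation, filter, probe choice, blocks and arrays. Figures were drawn with Python 3.11.15 and matplotlib 3.10.9. Results of some genes are not reported here.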

Additional observations from a re-analysis of the deposited data

Results flagged for a closer look

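In 10 of 108 groups of 4 arrays (9.26%), 1 array lay far from the other 3 of its fraction. Chance gives this in about 1 in 20 groups. The arrays concerned were heavy polysome array 1 (2 genes), heavy polysome array 3 (3 genes), total RNA array 1 (2 genes) and total RNA array 4 (3 genes). Log2 ratios are Eif4g3 siRNA over control siRNA.

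On heavy polysome array 1, Map2k3 had 1.13, against -0.13 to 0.08 on the other heavy polysome arrays, and Dusp10 had 0.10, against 0.36 to 0.37. On heavy polysome array 3, Map2k4 had 0.70, against 0.45 to 0.48. Dusp22 had -0.42 on that array, against 0.08 to 0.16, and Araf had -0.87, against -0.45 to -0.42.

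On total RNA array 1, Map4k4 had -0.94, against -0.70 to -0.66 on the other total RNA arrays, and Map2k3 had -0.51, against -0.12 to -0.08. On total RNA array 4, Mapk7 had -1.61, against -0.23 to 0.01. Map3k13 had -0.80 on that array, against 0.13 to 0.27, and Limk1 had -1.36, against -0.71 to -0.60.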

How the results depend on the processing

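Of 566 alternatives of the 26 values past the threshold, 394 kept direction and threshold, 171 kept direction only and 1 reversed. The reversal was Dusp10 in total RNA, at -0.39 with arrays centred on the median of all spots, where the median of all tested genes was -0.78. Where a call changed, the cause was not tested. The second probes of Map4k4 and Mapk8ip3 were dimmer than the first, and the part of signal level in their ratios was not tested.

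In heavy polysome and in total RNA, counts of all tested genes moved with those of the members, and the share of all genes follows each count. Members past the threshold in heavy polysome RNA (6, with 8.91%) numbered 11 with processed signals (14.2%), the deposited matrix (14.1%), array position as a block (11.4%) or without heavy polysome arrays 1 and 3 and total RNA array 4 (16.4%). They numbered 13 with slide as a random block (17.9%), 3 with heavy polysome arrays 2 and 4 averaged (3%), 2 with the fraction fitted alone (2.64%) and 0 under tested-probe (0.994%) and all-spot (0%) centring without loess. In total RNA (6, with 4.38%) they numbered 10 with processed signals (1554 of 14485 genes), 14 without those 3 arrays (21.8%) and 0 under all-spot centring (0%). Between fractions of Eif4g3 siRNA cells (0), they numbered 3 with processed signals and with 75th percentile scaling, and 1 with probes averaged, offset 16, slide as a block or the stricter filter. In control siRNA cells (2), 0 passed without those 3 arrays. For counts between fractions, here and with the replicate block below, the share of all genes was taken only in the main setting. It was 0.152% in Eif4g3 siRNA cells and 2.17% in control siRNA cells, so the other counts cannot be set against a background. Leaving out 1 array gave 2 to 8 (2.34% to 10.6% of all genes), 1 to 8 (0.359% to 9.15%), 0 to 1 and 1 to 3, in this order. It gave 0 throughout for the difference between fractions.

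Mapkapk2 in heavy polysome RNA missed the threshold with all probes kept (-0.70, limma adjusted p = 0.0815), all-spot centring (-0.67, adjusted p = 1), tested-probe centring (-0.68, adjusted p = 0.306), arrays 2 and 4 averaged (-0.63, adjusted p = 0.158), probes averaged (-0.33, adjusted p = 0.259) and the fraction alone (-0.70, adjusted p = 0.125). By limma, Dusp2 there missed it under both centrings (0.99, adjusted p = 1 and 0.0688), with the arrays averaged (0.93, adjusted p = 0.093) and with the fraction alone (1.08, adjusted p = 0.0577). In total RNA, by limma, all-spot centring gave Mapkapk2 -2.31 (adjusted p = 0.0929) and Dusp2 0.51 (adjusted p = 0.222). Leaving out 1 array gave Mapkapk2 -0.96 to -0.58 in heavy polysome and -1.46 to -1.23 in total RNA, and Dusp2 0.86 to 1.28 and 1.18 to 1.56.

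No label says whether arrays with the same replicate number in the fractions share a lysate, and the main fit did not pair them. Same-numbered arrays had correlations of their deviations of -0.02, 0.17, -0.11 and -0.30. With 4 arrays per fraction these values cannot settle whether the arrays are paired. With a replicate block, 4 members passed in heavy polysome RNA (4.05% of all genes), 3 in total RNA (1.46%) and 1 in Eif4g3 siRNA cells between fractions (Map3k10, limma adjusted p = 0.0358). By limma with that block, Mapkapk2 (-0.70, adjusted p = 0.0724), Dusp4 (0.0562), Hras (0.056), Araf (0.0525), Rasa1 (0.081) and Atf3 (0.094) did not pass in heavy polysome RNA, nor did Map2k6 (0.0881), Tab1 (0.107), Dusp10 (0.121), Ppp5c (0.104), Ccnd1 (0.11) and Limk1 (0.0906) in total RNA. The position block, and the counts above 0 and differences between fractions with arrays left out, were chosen after seeing the data.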
